A study of Mus musculus with 12 samples.

Results

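Slc17a6, Slc17a7, Slc32a1, Gad1, Gad2 and Camk2a, 6 genes in common use as markers of brain neurons, were followed through bulk RNA sequencing of mouse pituitary. They were taken by symbol from 55421 gene IDs in the count tables, and all 6 were among the 22630 genes that passed a filter on low counts. The labels give 12 libraries from C57BL/6 mice in 4 groups of 3. Genotype Cga-ctrlAAVGpr101fl/fl (a control virus) and genotype Cga-creAAVGpr101fl/fl (a virus with cre recombinase, the enzyme that cuts out floxed sequence) each received control vehicle or the ligand AA14 for 1 week. Below, ctrl and cre stand for the virus, as in ctrl_vehicle and cre_AA14, and libraries carry the numbers of their titles. Every group, controls included, carries the floxed Gpr101 gene and a virus. Cga, in the genotype names, is the gene of the alpha subunit shared by the pituitary glycoprotein hormones; neither the promoter of cre nor the animals' age is stated in the labels. The glands were dispersed into single cells and washed before RNA was taken. The labels do not say whether libraries came from separate mice, so p-values measure only the spread between these libraries, which may be technical.

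Glutamate and GABA are the main excitatory and inhibitory transmitters of the brain. GABA is made from glutamate by the glutamate decarboxylases GAD67 and GAD65, encoded by Gad1 and Gad2, and is loaded into synaptic vesicles by the transporter encoded by Slc32a1. Slc17a6 and Slc17a7 encode the vesicular glutamate transporters VGLUT2, the main form in hypothalamus and thalamus, and VGLUT1, the main form in cortex and hippocampus. Camk2a encodes the alpha subunit of calcium/calmodulin-dependent protein kinase II (CaMKII), which is abundant in forebrain excitatory neurons. Endocrine cells can hold parts of this machinery too, and the posterior lobe of the gland contains axons of hypothalamic neurons with their glia. Mbp, which encodes myelin basic protein, is a major gene of the oligodendrocyte, the cell that makes myelin in the brain. In bulk RNA, fewer cells of a type and less RNA per cell cannot be told apart.

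Totals were 48693682 to 73388221 counts per library. The summed level of 7 hormone genes was 168500 to 319500 CPM (normalised read counts, scaled to the depth of each library with TMM factors), so all 12 libraries held the pituitary's defining transcripts. Gpr101, the targeted gene, read 1.22 to 16.1 CPM over the 6 control-virus libraries and 0.901 to 4.29 CPM over the 6 cre libraries, and these ranges overlap. Its highest value was in ctrl_vehicle 3. The libraries were uneven in oligodendrocyte genes. A list of 12 such genes summed to 2493 CPM in ctrl_vehicle 3, 805.6 CPM in ctrl_AA14 1 and 3406 CPM in cre_vehicle 2, against 86.75 to 481.9 CPM in the other 9. These 3 are called the myelin-rich libraries below; they were set apart by measured values, so what compares them with the others is a description without a test. Malat1, a nuclear RNA, also split the libraries. It read 1105 to 1560 CPM in the 3 ctrl_AA14 libraries, cre_vehicle 1 and cre_AA14 2, and 199 to 549 CPM in the other 7.

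The 6 genes fell into a pair that was nearly missing from most libraries and 4 that were read in all of them. Gad1 stayed at 0.0995 to 0.647 CPM (7 to 38 counts) and Slc32a1 at 0.135 to 2.18 CPM in the 9 libraries that were not myelin-rich. In the same 9, Gad2 read 12.7 to 23.8 CPM, Slc17a6 12.5 to 26.6 CPM, Camk2a 3.61 to 34.7 CPM and Slc17a7 3.19 to 19.8 CPM. The name of brain neuron markers thus went with near absence in those 9 libraries for 2 of the 6 genes and not for the other 4. The plot of levels by library and group shows all 72 values.

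**Figure D1:**
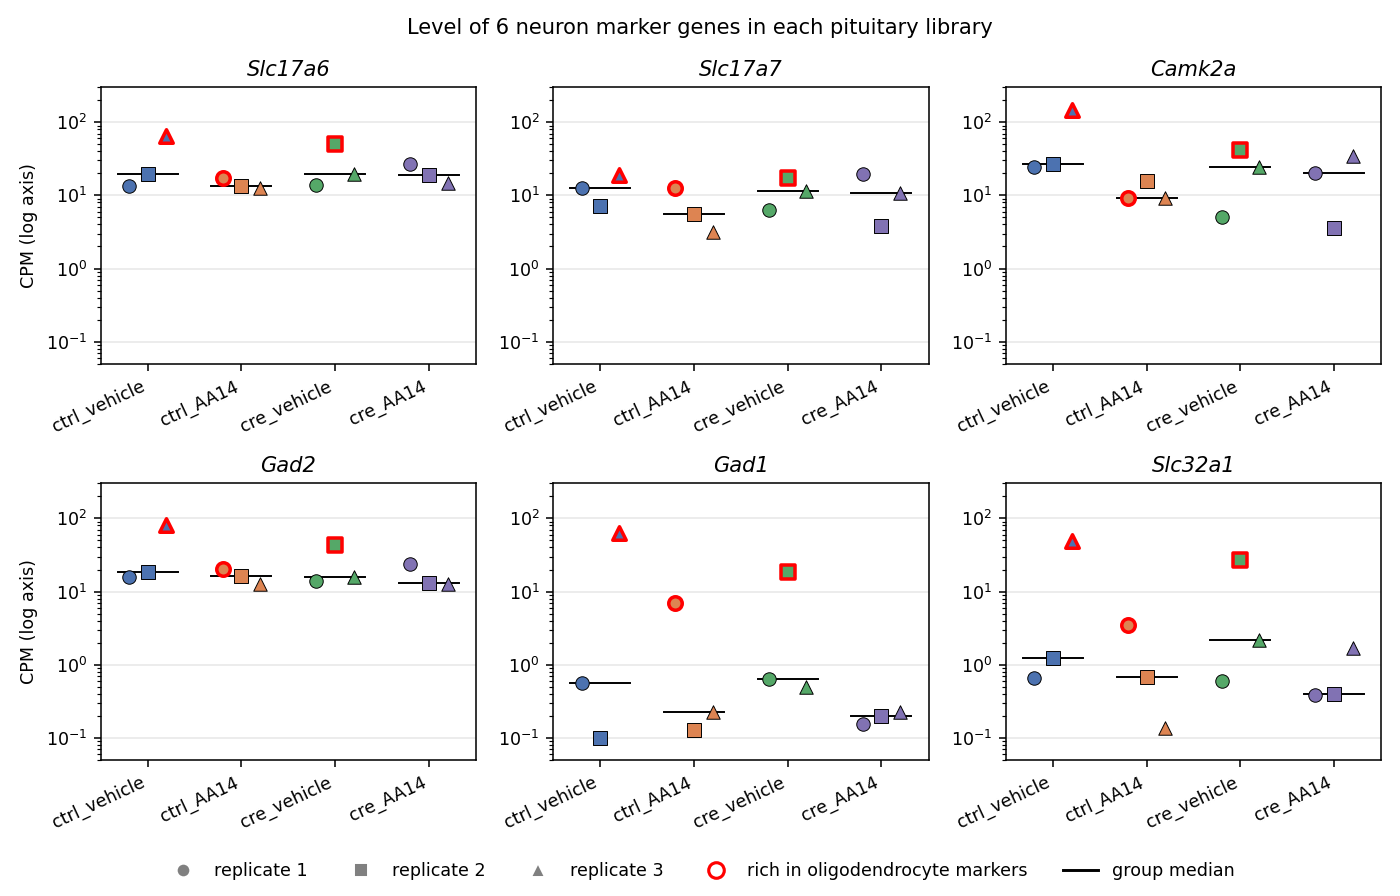
CPM (log axis) of each gene in each library, by group; marker shapes give the replicate number, lines the group medians, and red outlines the 3 myelin-rich libraries. Gad1 and Slc32a1 are low in the 9 other libraries and stand out in the 3 outlined, while Slc17a6 and Gad2 lie at 12.5 CPM or more in every library.

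The 3 GABA genes lie on chromosome 2 of GRCm38: Gad1 (ENSMUSG00000070880) at 70553072-70602014, Gad2 (ENSMUSG00000026787) at 22622205-22693874 and Slc32a1 (ENSMUSG00000037771) at 158610767-158615748, each on the plus strand. Promoter sequences are shown because Gad2 and Gad1 encode enzymes of the same reaction and yet differed in these libraries. The stretches are from RefSeq (GRCm38.p6, plus strand), each beginning 250 bases before the gene's RefSeq start, at chr2:22622077-22622204 for Gad2, chr2:70561879-70562041 for Gad1 and chr2:158610508-158610757 for Slc32a1. The Gad1 stretch lies inside the gene's span in the annotation used for counting lengths, which begins further upstream, so it precedes the RefSeq start and not the first annotated base. Capitals mark a match to one of 3 motifs searched on both strands.
Gad2: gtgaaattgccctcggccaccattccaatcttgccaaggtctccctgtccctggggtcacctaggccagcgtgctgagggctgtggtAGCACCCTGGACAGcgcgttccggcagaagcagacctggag
Gad1: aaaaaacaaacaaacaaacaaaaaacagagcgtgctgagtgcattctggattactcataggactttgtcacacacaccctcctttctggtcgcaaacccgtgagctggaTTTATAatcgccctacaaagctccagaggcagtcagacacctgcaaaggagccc
Slc32a1: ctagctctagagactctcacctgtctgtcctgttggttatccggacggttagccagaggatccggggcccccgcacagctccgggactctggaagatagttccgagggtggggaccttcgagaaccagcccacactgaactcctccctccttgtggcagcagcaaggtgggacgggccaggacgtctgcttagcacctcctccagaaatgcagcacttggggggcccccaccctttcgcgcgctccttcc
The motifs were chosen after the windows had been seen: RE1 (AGCACC, any 2 bases, GGACAG), the element bound by REST, a repressor of neuronal genes; CRE (TGACGTCA), a cyclic AMP response element; and the TATA box (TATAAA). Windows ran from 250 bases before to 50 bases after each start, and 5 of the 6 genes, all but Camk2a, had at least 1. The capitals in Gad2 are an RE1 match that begins 163 bases before the start; 17 of all 32851 windows (0.0517%) held one, and no other window of the 6 genes did. The capitals in Gad1 are a TATA box match on the minus strand, present in 4473 windows (13.6%). CRE was in 588 windows (1.79%) and in none of these genes. A match is a description of letters and not a site. Since the motifs were chosen with the windows in view, these shares are not a test of the matches. Any link between a match and the levels of a gene was not tested. The stretches printed are parts of the longer windows searched.

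Gad1 was the most uneven gene. It read 0.561, 0.0995 and 62.9 CPM in the ctrl_vehicle libraries 1 to 3, 6.90, 0.129 and 0.224 in those of ctrl_AA14, 0.647, 18.2 and 0.492 in those of cre_vehicle, and 0.153, 0.199 and 0.225 in those of cre_AA14. Each of the first 3 groups had 1 high library, and that library was the myelin-rich one; cre_AA14 had none. Counts show the depth behind this: 4584, 507 and 1363 counts in ctrl_vehicle 3, ctrl_AA14 1 and cre_vehicle 2, against at most 38 elsewhere. Over the median of the other 9 libraries, Gad1 was 280-fold, 30.8-fold and 81.3-fold higher in these 3. Group means were 21.2 ± 36.1, 2.42 ± 3.88, 6.46 ± 10.2 and 0.193 ± 0.0365 CPM (SD, n = 3 each) in the same group order, so the SD exceeded the mean wherever a myelin-rich library was present.

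Slc32a1, the vesicular GABA transporter gene, had the same 3 highest libraries. It read 0.649, 1.25 and 48.5 CPM in the ctrl_vehicle libraries, 3.49, 0.687 and 0.135 in those of ctrl_AA14, 0.607, 27.1 and 2.18 in those of cre_vehicle, and 0.383, 0.399 and 1.69 in those of cre_AA14. The myelin-rich libraries were 74.6-fold, 5.37-fold and 41.7-fold over the median of the other 9, with ctrl_AA14 1 only a little above the highest of them. Group means were 16.8 ± 27.4, 1.44 ± 1.8, 9.95 ± 14.8 and 0.824 ± 0.750 CPM (SD, n = 3 each). Slc32a1 shares 697 exon bases (24.92% of its own) with the antisense gene Gm14205, and whether counting used strand is not stated in the labels, so the reads of the 2 genes cannot be told apart there. No other gene of the 6 shares exon bases with another gene.

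Gad2, the second decarboxylase gene, was present throughout. It read 15.8, 18.3 and 80.1 CPM in the ctrl_vehicle libraries, 20.02, 16.1 and 12.7 in those of ctrl_AA14, 14.1, 42.6 and 15.6 in those of cre_vehicle, and 23.8, 13.0 and 12.7 in those of cre_AA14. The 2 highest values were myelin-rich libraries, ctrl_vehicle 3 and cre_vehicle 2, at 5.15-fold and 2.74-fold the median of the other 9, but the third, ctrl_AA14 1, lay within the range of those 9. Group means were 38.1 ± 36.4, 16.3 ± 3.66, 24.1 ± 16.1 and 16.5 ± 6.35 CPM (SD, n = 3 each). The ratio of Gad2 to Gad1 CPM, read across libraries and not as a level of one gene over the other, was 21.8 to 184 (median 56.6) in the 9 libraries. It was 1.27 in ctrl_vehicle 3, 2.90 in ctrl_AA14 1 and 2.34 in cre_vehicle 2, with no overlap.

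**Figure D2:**
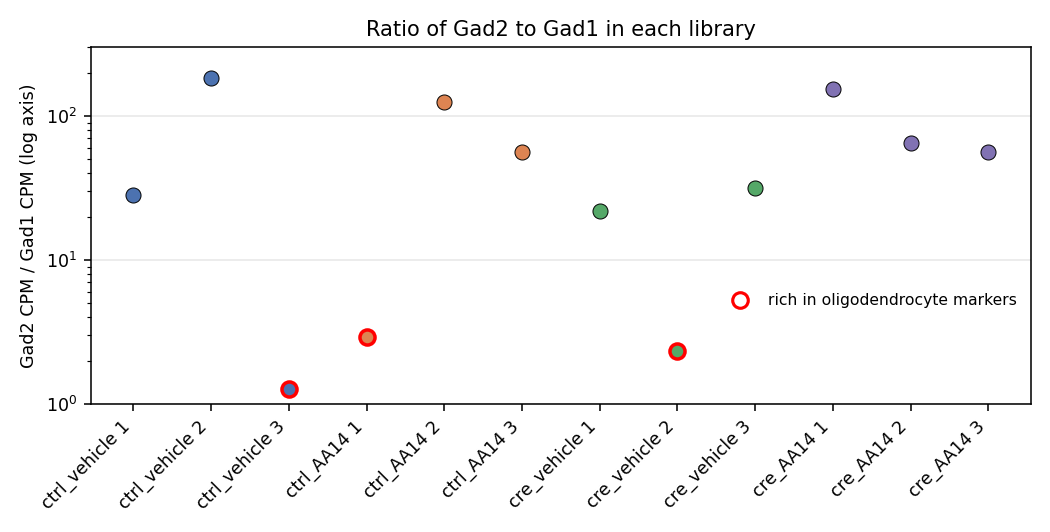
Ratio of Gad2 CPM to Gad1 CPM (log axis) in each library, coloured by group, with the 3 myelin-rich libraries outlined in red. These 3 lie at 1.27 to 2.90 and the other 9 at 21.8 to 184.

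Slc17a6 (ENSMUSG00000030500, chromosome 7, 51622006-51671119), the VGLUT2 gene, resembled Gad2 in having a level common to all libraries. It read 13.2, 19.3 and 64.0 CPM in the ctrl_vehicle libraries, 17.3, 13.6 and 12.5 in those of ctrl_AA14, 14.0, 49.9 and 19.5 in those of cre_vehicle, and 26.6, 18.8 and 14.8 in those of cre_AA14. Ctrl_vehicle 3 and cre_vehicle 2 were high, at 4.33-fold and 3.38-fold the median of the other 9, and ctrl_AA14 1 (1.17-fold) was among the 9. Group means were 32.2 ± 27.7, 14.5 ± 2.54, 27.8 ± 19.4 and 20.1 ± 5.98 CPM (SD, n = 3 each).

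Slc17a7 (ENSMUSG00000070570, chromosome 7, 45163949-45176142), the VGLUT1 gene, set the myelin-rich libraries apart least. It read 12.7, 7.08 and 19.2 CPM in the ctrl_vehicle libraries, 12.6, 5.48 and 3.19 in those of ctrl_AA14, 6.21, 17.3 and 11.5 in those of cre_vehicle, and 19.8, 3.83 and 10.9 in those of cre_AA14. The highest value belonged to cre_AA14 1, which was not myelin-rich by its summed oligodendrocyte genes. Myelin-rich libraries were 2.71-fold, 1.78-fold and 2.45-fold over the median of the other 9, inside their range. Group means were 13.0 ± 6.05, 7.08 ± 4.89, 11.7 ± 5.55 and 11.5 ± 7.98 CPM (SD, n = 3 each).

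Camk2a (ENSMUSG00000024617, chromosome 18, 60925618-60988152), the kinase subunit gene, had the widest range in CPM over the 9 other libraries among the 4 genes that were present throughout. It read 24.6, 26.7 and 147 CPM in the ctrl_vehicle libraries, 9.06, 15.6 and 9.22 in those of ctrl_AA14, 5.12, 42.2 and 24.4 in those of cre_vehicle, and 20.05, 3.61 and 34.7 in those of cre_AA14. It was 7.34-fold over the median of the other 9 in ctrl_vehicle 3 and 2.11-fold in cre_vehicle 2, but 0.452-fold in the third myelin-rich library, ctrl_AA14 1. Group means were 66.1 ± 70.1, 11.3 ± 3.74, 23.9 ± 18.5 and 19.5 ± 15.6 CPM (SD, n = 3 each).

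All 3 myelin-rich libraries lay above all 9 others for 2 of the 6 genes, Gad1 and Slc32a1, against 2.79% of the 22630 genes tested. One library at a time, 5 of the 6 exceeded the highest of the 9 in ctrl_vehicle 3 (23.0% of all genes did), 5 in cre_vehicle 2 (17.2%) and 2 in ctrl_AA14 1 (8.44%). Slc17a7 did not exceed it in either of the first 2 libraries. Without ctrl_AA14 1, the 2 remaining libraries stood above the 9 for 5 genes in place of 2.

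Levels of different genes were compared per kilobase of exon. Over all 12 libraries the order was Slc17a6 at 4.376 ± 3.02 CPM per kb (SD, n = 12), Camk2a at 4.046 ± 5.18, Gad2 at 4.04 ± 3.33, Slc32a1 at 2.592 ± 5.36, Slc17a7 at 2.003 ± 1.07 and Gad1 at 0.9904 ± 2.39. No neighbours in this order differed beyond their SDs. Slc32a1 stood above Slc17a7 in the mean but in only 2 of 12 libraries, whereas Slc17a7 exceeded Gad1 in 11 of 12. In the 9 libraries that were not myelin-rich the order was Slc17a6 (mean 3.134 CPM per kb), Gad2 (2.687), Camk2a (2.442), Slc17a7 (1.66), Slc32a1 (0.3171) and Gad1 (0.03972). There the last 2 steps, Slc17a7 over Slc32a1 and Slc32a1 over Gad1, held in 9 of 9 libraries each, while Gad2 exceeded Camk2a in 5 of 9. With the longest transcript as the length, Camk2a came before Slc17a6 and Slc17a7 before Slc32a1 over the 12 libraries. That length is 3601 bases for Gad1, against 7639 bases of exon. With it Slc32a1 was below Gad1 in ctrl_AA14 3 (9 and 15 counts), so that step in the 9 depends on the length used.

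Agreement with Mbp was measured over the 12 libraries on log2(CPM + 0.5), with permutation tests adjusted over the 6 relations. Mbp read 44.4, 45.05 and 1016 CPM in the ctrl_vehicle libraries, 203, 21.9 and 21.2 in those of ctrl_AA14, 21.9, 1384 and 60.1 in those of cre_vehicle, and 235, 22.7 and 60.4 in those of cre_AA14. By ranks, 5 of the 6 genes correlated with it. Spearman's rho was 0.87 for Slc17a7 (permutation p = 0.00052, adjusted 0.00312), 0.83 for Slc17a6 (p = 0.00162, adjusted 0.00486) and 0.71 for Gad2 (p = 0.0118, adjusted 0.0213). It was 0.70 for Slc32a1 (permutation p = 0.0142, adjusted 0.0213), 0.66 for Camk2a (p = 0.0247, adjusted 0.0296) and 0.45 for Gad1 (p = 0.141, adjusted 0.141). Pearson's r was 0.90 for Slc17a6 (permutation p = 0.00052), 0.90 for Gad2 (p = 0.0002), 0.87 for Slc32a1 (p = 0.00141), 0.85 for Gad1 (p = 0.00294), 0.83 for Slc17a7 (p = 0.00082) and 0.69 for Camk2a (p = 0.0122). Adjusted over the 6, these p-values were at most 0.0122. Gad1 thus passed by r and not by rank, since its 9 low libraries had no order that followed Mbp.

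Much of this agreement rested on the 2 libraries farthest from the median in Mbp, ctrl_vehicle 3 and cre_vehicle 2. Without them (n = 10), r was 0.86 for Slc17a7, 0.79 for Gad2, 0.66 for Slc17a6, 0.50 for Slc32a1, 0.49 for Gad1 and 0.36 for Camk2a, and only Slc17a7 passed by rank (rho 0.82, permutation adjusted p = 0.0350). By r, Slc17a7 (permutation adjusted p = 0.00732) and Gad2 (permutation adjusted p = 0.0215) passed at n = 10. Without either of these 2 libraries alone, 2 genes passed by rank. Without all 3 myelin-rich libraries (n = 9, exact tests), r was 0.89 for Slc17a7, 0.75 for Slc17a6, 0.75 for Gad2, 0.59 for Camk2a, 0.23 for Slc32a1 and -0.16 for Gad1. None then passed by rank after adjustment, and Slc17a7 and Slc17a6 were nearest, each with an exact permutation adjusted p = 0.0642. By r, Slc17a7 (exact permutation adjusted p = 0.00427) and Slc17a6 (0.0456) passed, and Gad2 was next (0.0556). With cre_AA14 1 left out too (n = 8), a choice made after seeing the data, the genes that passed by r changed. They were Slc17a7, Slc32a1 and Camk2a, while Slc17a6, Gad1 and Gad2 did not pass. Over deviations from the group means, which take out differences between groups, rho was 0.72 to 0.85 for all 6 genes, Gad1 included. Deviations cancel out within a group, so a high library lowers the rest of its group in both genes at once. The permutations did not allow for this, so the permutation adjusted p = 0.0105 for Gad1 cannot be read as a test.

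**Figure D3:**
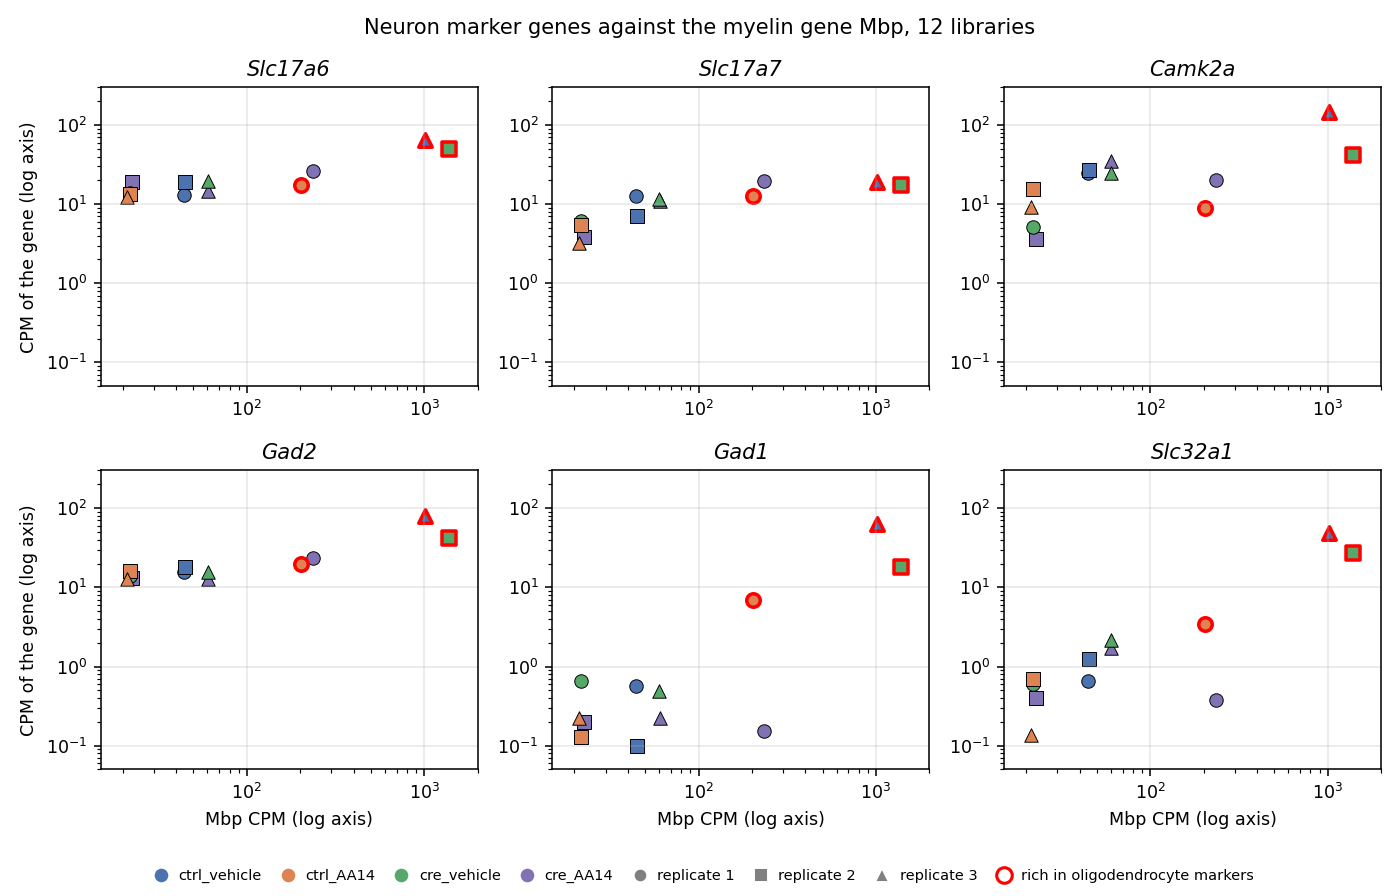
CPM of each gene against CPM of Mbp (both log axes) in the 12 libraries, coloured by group, shaped by replicate number, with the 3 myelin-rich libraries outlined in red. Gad1 stays at 0.647 CPM or less over the other 9 libraries, including one at 235 CPM of Mbp, while Slc17a7 is higher where Mbp is higher within those 9.

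One library separated Mbp from the other measures. Cre_AA14 1 had 235 CPM of Mbp, more than the 203 CPM of the myelin-rich ctrl_AA14 1, and 139.5 CPM of Mobp, another myelin gene. Mog, a gene of mature oligodendrocytes, was at most 0.49 CPM there and in the other 8 libraries that were not myelin-rich, against 10.2 to 27.9 CPM in the myelin-rich ones. Gad1 and Slc32a1 were low in cre_AA14 1, at 0.153 and 0.383 CPM. With the other 11 oligodendrocyte genes in place of Mbp, Gad1 had the highest r of the 6, at 0.96 (permutation p = 0.00053, adjusted 0.00159), with rho 0.73 (adjusted p = 0.0295). Camk2a had the lowest, r 0.59 (permutation p = 0.0477) with rho 0.57 (adjusted p = 0.0568). The myelin-rich libraries were set apart by this same list with Mbp, so these values largely restate that split and are a description. Agreement with this list without those libraries was not tested.

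Malat1 moved with part of these values. Among the 9 libraries that were not myelin-rich, Camk2a was 3.61 to 15.6 CPM in the 4 with high Malat1 and 20.05 to 34.7 CPM in the 5 with low Malat1. Slc17a7 was 3.19 to 6.21 CPM and 7.08 to 19.8 CPM in the same sets. These 2 of the 6 genes did not overlap, and 21.9% of 16406 genes of at least 1 CPM were likewise lower without overlap. Mbp was itself lower in the high-Malat1 libraries, at 21.2 to 22.7 CPM against 44.4 to 235 CPM, as were Avp and Oxt, the vasopressin and oxytocin genes of hypothalamic neurons. The sets of 4 and 5 are too small for a correlation with Mbp within each. The part of the Malat1 state in the agreement of Camk2a and Slc17a7 with Mbp was not tested.

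Other neuron genes were uneven over the myelin-rich libraries. Over lists of cell type genes, ctrl_vehicle 3 exceeded the highest of the 9 others for 11 of 11 GABAergic neuron genes, 8 of 12 glutamatergic forebrain genes, 12 of 14 hypothalamic genes, 7 of 7 astrocyte genes and 5 of 6 Schwann cell genes, beside 23.0% of all genes. In cre_vehicle 2 these counts were 4, 7, 4, 7 and 2, beside 17.2% of all genes, and in ctrl_AA14 1 they were 5, 8, 2, 5 and 2, beside 8.44%. The hypothalamic counts in the latter 2 libraries, 4 of 14 and 2 of 14, were near those shares. Sst, the somatostatin gene of one interneuron class, read 52.0 CPM in ctrl_vehicle 3, 19.6 CPM in cre_vehicle 2 and 4.04 CPM in ctrl_AA14 1, against at most 0.133 CPM in the 9. It kept the order of Gad1 over these 3 libraries.

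The hypothalamic peptide gene Pmch kept that order too, but the size of the steps differed widely between genes, and for Pvalb, Trh and Neurod6 the order broke. Pvalb, the parvalbumin gene of another interneuron class, read 17.9 CPM in ctrl_vehicle 3, 33.2 CPM in cre_vehicle 2 and 21.9 CPM in ctrl_AA14 1, against 2.27 to 3.89 CPM in the 9. Pmch was at 31.1 CPM in ctrl_vehicle 3, 0.268 CPM in cre_vehicle 2 and 0 in ctrl_AA14 1. Trh, the thyrotropin-releasing hormone gene, read 45.6 CPM in ctrl_vehicle 3 and 0 in cre_vehicle 2, and Otp, a hypothalamic transcription factor gene, 36.7 and 0.776 CPM. Avp, whose neurons send their axons to the posterior lobe, was at 293 CPM in ctrl_vehicle 3, 12.1 CPM in cre_vehicle 2 and 2.56 CPM in ctrl_AA14 1, against 1.62 to 24.6 CPM in the 9. The Schwann cell gene Prx read 141 CPM in ctrl_vehicle 3, against at most 2.79 CPM in the 9. The cortical factor gene Neurod6 went the other way, at 1.28 CPM in ctrl_AA14 1 and 0.0686 CPM in ctrl_vehicle 3. The share of each cell type in the levels of the 6 genes was not tested.

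**Figure D4:**
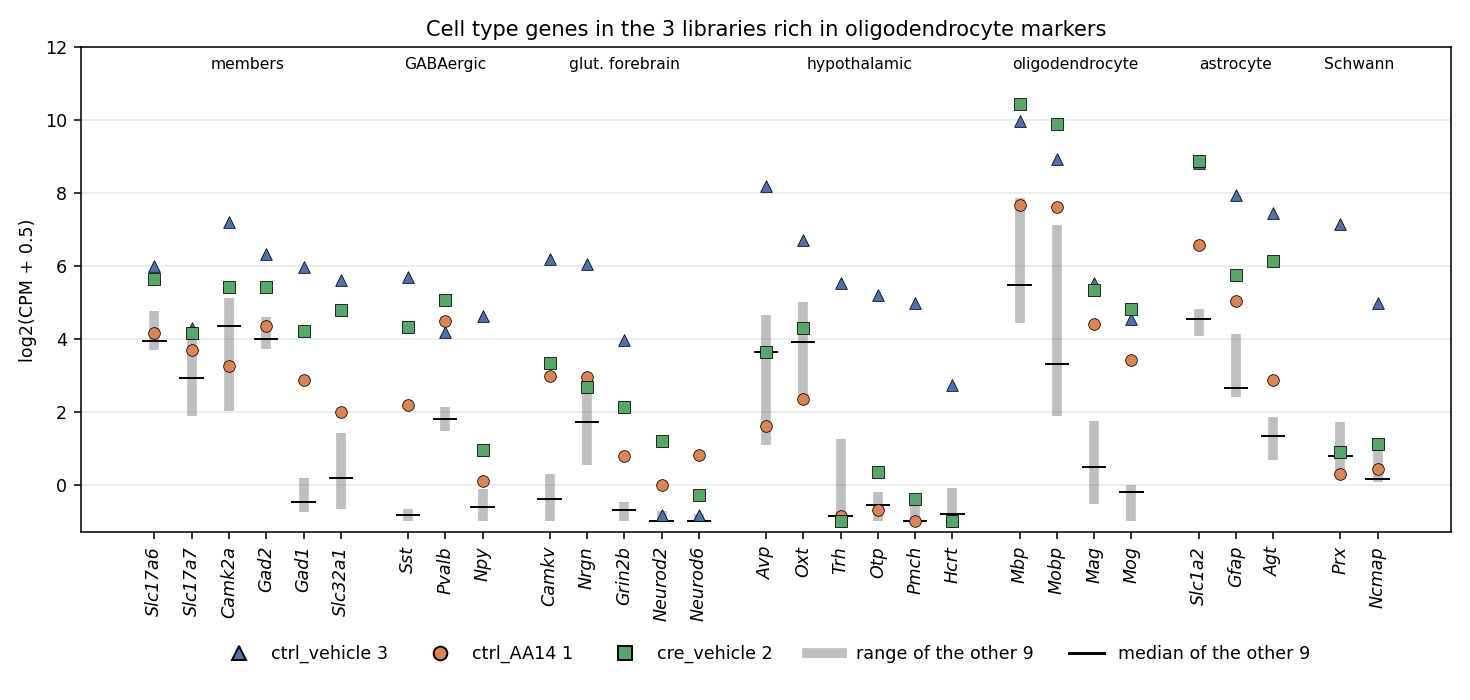
Level as log2(CPM + 0.5) of genes of 7 sets in the 3 myelin-rich libraries (coloured markers), with the range (gray) and median (black line) of the other 9. Gad1 and Slc32a1 lie above the gray range in all 3, and Trh, Otp, Pmch and Prx do so in ctrl_vehicle 3.

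The rise of each gene per unit of Mbp also varied. Per 100 CPM of Mbp above the median of the 9, ctrl_vehicle 3 held 13.1 CPM of Camk2a, 6.64 of Gad2, 6.45 of Gad1, 5.06 of Slc17a6, 4.92 of Slc32a1 and 1.24 of Slc17a7 above their own medians. Cre_vehicle 2 held 1.65, 2.02, 1.35, 2.63, 1.97 and 0.765 in the same order, lower for each gene. Ctrl_AA14 1 was at -6.93 for Camk2a and held 2.81 of Gad2, 4.21 of Gad1, 1.59 of Slc17a6, 1.79 of Slc32a1 and 3.46 of Slc17a7, the last above both other libraries. In that library Mbp, at 203 CPM, lay inside the range of the 9 (21.2 to 235 CPM). Camk2a, Gad2, Slc17a6 and Slc17a7 also lay inside their ranges there, so their values per Mbp are within the spread of the 9. The 9 mix both Malat1 states, however, and ctrl_AA14 1 had high Malat1. Against the 4 of the 9 with high Malat1, its Mbp was higher (at most 22.7 CPM in those 4). So were its Slc17a7 (12.6 against at most 6.21 CPM) and Gad2 (20.02 against at most 16.1 CPM). Slc17a6 (17.3 CPM) and Camk2a (9.06 CPM) lay within the 4, at 12.5 to 18.8 and 3.61 to 15.6 CPM. Of the 7 hormone genes, all 7 were below the median of the 9 in ctrl_vehicle 3 (0.406 to 0.658 of it) and 6 in cre_vehicle 2, where Pomc was at 1.09 and Prl at 0.904. Gh was at 0.573 and 0.544 of that median and Prl at 0.541 and 0.904, both inside the range of the 9. Cga lay below that range in both libraries, at 3170 and 3277 CPM against at least 5063 CPM in the 9. Tshb (146.5 and 191.8 against 245.3), Lhb (460.5 and 464.9 against 580.4) and Fshb (670.7 and 848.8 against 867.2) did so too. Pomc did so in ctrl_vehicle 3 alone, at 11580 against 12380 CPM. In ctrl_AA14 1, Tshb (1.29), Cga (1.15), Fshb (1.12) and Lhb (1.07) were above the median, and Pomc (0.955), Gh (0.926) and Prl (0.57) below it.

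The comparisons of the design asked whether AA14 or cre changed these genes, and none of the 6 passed the test in any of them. In control-virus mice, 0 of the 6 differed between AA14 and vehicle (0.00442% of the 22630 genes tested did) by edgeR's quasi-likelihood test with Benjamini-Hochberg adjustment at 0.05. At an unadjusted p under 0.05 there was 1 of the 6, Camk2a, and 5386 of all genes. DESeq2 also called 0 of the 6, where it called 10.2% of all genes, with no adjusted p for Gad1 and Slc32a1. Limma-voom called 0 of the 6, where it called 15.1%. Fitted log2 fold changes were below 0 for 6 of 6, with a median of -1.89 beside -0.0157 over all genes.

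Camk2a had the smallest p there. Its log2 fold change was -2.55 (SE 0.946), with an edgeR adjusted p = 0.155, and its ctrl_AA14 values of 9.06 to 15.6 CPM all lay below the ctrl_vehicle values of 24.6 to 147 CPM. It was the only 1 of the 6 whose groups did not overlap in that direction, and 20.1% of all genes did the same. Without ctrl_vehicle 3 the change was -1.18, and with Malat1 state as a term it was 0.26. All 3 ctrl_AA14 libraries had high Malat1 and all 3 ctrl_vehicle libraries low, so within this comparison AA14 and the Malat1 state cannot be told apart. Only the cre groups held both states, so the Malat1 term was set by them alone and carried over to the control-virus libraries. Slc32a1 came to -3.54 (SE 1.802, edgeR adjusted p = 0.250) and Gad1 to -3.13 (SE 2.10, edgeR adjusted p = 0.379). Without ctrl_vehicle 3 these 2 reversed, to 0.60 and 2.87. Gad2 was at -1.23 (SE 0.617) and Slc17a6 at -1.15 (SE 0.581), each with an edgeR adjusted p = 0.246, and they came to -0.07 and -0.17 without that library. Slc17a7 was at -0.87 (SE 0.642, edgeR adjusted p = 0.424), and at 0.72 with the Malat1 term.

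**Figure D5:**
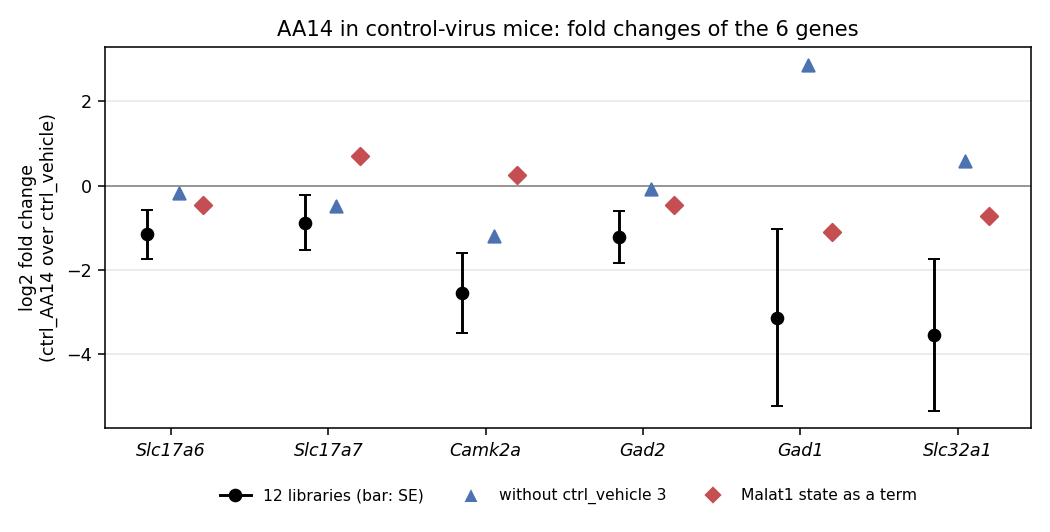
Log2 fold change of each gene for AA14 against vehicle in control-virus mice: black points with SE bars from all 12 libraries, triangles without ctrl_vehicle 3, diamonds with Malat1 state as a term. That term was set by the cre groups alone. The black points lie between -3.54 and -0.87, and without ctrl_vehicle 3 Gad1 moves to 2.87 and Slc32a1 to 0.60.

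In cre mice, AA14 against vehicle gave 0 of 6 (0.0% of all genes). Gad1 had the smallest p, with a log2 fold change of -5.06 (SE 2.41, edgeR adjusted p = 1.00). Its 3 cre_AA14 values of 0.153 to 0.225 CPM were below the cre_vehicle values of 0.492 to 18.2 CPM, 1 of 6 without overlap in that direction where 2.54% of all genes did so. Its myelin-rich library, cre_vehicle 2, made most of that mean, and without it the change was -1.56. Cre against control virus gave 0 of 6 under vehicle (0.00442%) and 0 of 6 under AA14 (0.0%). Under vehicle Camk2a had the smallest p, at -1.47 (SE 0.911, edgeR adjusted p = 1.00), and at -0.098 without ctrl_vehicle 3. Under AA14 it was Gad1, at -3.65 (SE 2.30, edgeR adjusted p = 0.655), and at 0.13 without ctrl_AA14 1. The difference between the AA14 effects of the 2 genotypes gave 0 of 6 (0.00442%), Camk2a having the smallest p at 2.25 (cre minus control, SE 1.28, edgeR adjusted p = 0.631). Without ctrl_vehicle 3 that difference was 0.88. These comparisons share groups and are not independent of each other. In each of these 4 contrasts, no gene of the 6 was at an unadjusted p under 0.05 by edgeR, while 519, 452, 1927 and 1591 of all genes were.

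Genes of the same pathways were present in the gland libraries. Of 31 other genes of glutamate and GABA handling, edgeR called 0 higher and 0 lower in each of the 5 comparisons, where it called at most 0.00442% of all genes. Of the 31, 21 exceeded the highest of the 9 libraries that were not myelin-rich in ctrl_vehicle 3 (23.0% of all genes did). In cre_vehicle 2, 19 did (17.2%), and the part of these 2 libraries in the signs below was not tested. For AA14 in cre mice, 26 of 31 were below 0, where 49.7% of all genes were above 0. For AA14 in control-virus mice, 22 of 31 were below 0 (median log2 fold change -0.85), where 49.1% of all genes were above 0. There 8 of the 31 were at an unadjusted p under 0.05 by edgeR, beside 5386 of all genes. DESeq2 called 2 of the 31 there (10.2% of all genes), 1 in each direction, and limma-voom called 4 (15.1%), 3 higher and 1 lower. In the other 4 comparisons both called 0. Abat, the gene of the enzyme that breaks down GABA, read 63.3 to 108 CPM in the 9 libraries and 320 CPM in ctrl_vehicle 3. Glul, the glutamine synthetase gene of astrocytes and other cells, was 178 to 349 CPM in the 9 and 976 CPM in ctrl_vehicle 3. Both genes were thus read in every library and lay above the range of the 9 in the library where Gad1 was highest. Of the 12 other CaMKII pathway genes, edgeR called 0 in each comparison (at most 0.00442% of all genes). In ctrl_vehicle 3, 11 of the 12 exceeded the highest of the 9, and in cre_vehicle 2, 10 did (23.0% and 17.2% of all genes). For cre under vehicle 11 of 12 were below 0, where 46.2% of all genes were above 0. For AA14 in control-virus mice 11 of 12 were below 0 too (median -0.32), where 49.1% of all genes were above 0. In that comparison 4 of the 12 were at an unadjusted p under 0.05 by edgeR. There DESeq2 called 3 of the 12 lower (10.2% of all genes), among them Camk2n1 and Camk2n2, which encode inhibitors of CaMKII, and limma-voom called 1 lower, Camk2n1 (15.1%). Camk2b, the beta subunit gene, read 34.8 to 116 CPM in the 9 and 215 CPM in ctrl_vehicle 3; Camk2d, the delta subunit gene, 22.4 to 34.5 CPM and 35.8 CPM.

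The genes whose levels were most like each member were found by Pearson's r of log2(CPM + 0.5) over the 12 libraries among 13895 genes, as a description. Gad1 was nearest to Sox10, a transcription factor gene of oligodendrocytes and Schwann cells (0.992), then Sst (0.991), Stmn2 (0.987), Hs3st4 (0.986) and Kcnq3 (0.985). Genes near Slc32a1 were Wnt7b (0.979), Itih3, Brinp2 and Jph4. Gad2 was nearest to Tnfrsf21 (0.982), then Dnajc5, Ptpn5, Klc1 and Rab6b. Slc17a6 was nearest to Ctps (0.982), then Ctnnbip1, Kif5c, Tnfrsf21 and Katnal1, and Tnfrsf21 was the gene its list shared with that of Gad2. Slc17a7 was nearest to Poll (0.949), then Tpi1, Rims2 and Unc5b. Camk2a was nearest to Slc24a4 (0.961), then Srgap1, Krt1, Pcyt1b and Vstm4. All points share library depth and the 3 myelin-rich libraries: without these 3, the 5 nearest genes kept 1 gene for Slc17a6 (Ctps), 1 for Slc17a7 (Poll) and 0 for the other 4.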

How the data were processed

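For each of the 12 libraries the authors deposited a table of raw counts by gene ID. Per the labels' protocols, TRIzol RNA was made into NEBNext Ultra libraries, sequenced as paired reads and mapped with hisat2 2.0.0. The genome build GRCm38, DESeq 1.8.3 and the counter featureCounts 1.5.0-p3 are named per the submitters' processing notes. Annotation release, strand use and treatment of ambiguous reads were not given in the sources used here. Of 55421 gene IDs, 55154 matched a symbol in GENCODE M21 (GRCm38), which also gave coordinates and exon lengths; the unmatched IDs took up to 0.0135% of the counts.

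Totals of 48693682 to 73388221 counts gave a median standard error of 0.26 for a log2 fold change among genes of at least 1 CPM; the common biological coefficient of variation was 0.445. Groups came from the titles. Genes were filtered with filterByExpr, scaled with TMM factors and tested with edgeR 4.0.16 (quasi-likelihood F test, 1 mean per group, all 12 libraries, Benjamini-Hochberg over 22630 genes, threshold 0.05). SEs are the size of the fold change (log2) over the root of F. The script was tested on simulated data. Correlations used 100000 two-sided permutations, or all of them at 9 libraries or fewer; a gene counted as correlated with Mbp where rho was above 0 with an adjusted p of at most 0.05. No pair of libraries within a group had counts that matched within sampling noise.

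The members, the gene lists and the 3 myelin-rich libraries were chosen with earlier results of these data known. By rule the text names the 6 members, Mbp, Gpr101, Avp, Malat1, the 5 genes nearest each member, genes past the threshold and up to 4 of highest level per list; other genes were picked with their values in view, and some genes that the rule names are not reported here. Alternatives covered further size factors and filters, DESeq2 1.42.0, limma-voom (limma 3.58.1), a fit of 2 groups only, the replicate number as a block, Mbp or Malat1 state (above or below 800 CPM) as a term, other pseudocounts, and libraries left out; the 4 chosen after seeing the data left out libraries or changed the scaling for the descriptions.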

Additional observations from a re-analysis of the deposited data

How the results depend on the processing

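The count of the 6 genes called was 0 in all 5 comparisons under each of the alternatives run, with a lowest adjusted p of 0.0601 (Camk2a for AA14 in control-virus mice, DESeq2). Of 714 alternative fold changes, 646 kept their sign and 68 did not. For AA14 in control-virus mice, the Malat1 term, which was set by the cre groups alone, gave 0.72 for Slc17a7 and 0.26 for Camk2a. With log2 Mbp as a term, that comparison gave -0.05 for Gad1, -0.82 for Slc32a1 and -0.37 for Gad2. The same fit gave -0.40 for Slc17a6, -0.52 for Slc17a7 and -1.32 for Camk2a. Limma-voom gave 0.97 for Gad1. Leaving out 1 library gave -6.92 to 2.87 for Gad1, -5.37 to 0.60 for Slc32a1 and -2.94 to -1.18 for Camk2a; the highest value of each was without ctrl_vehicle 3. For cre under AA14, Gad1 was at 0.10 without the 3 myelin-rich libraries and ran from -4.20 to 0.13 (without ctrl_AA14 1) with 1 library left out. The same Malat1 term, carried over from the cre groups, turned the difference of AA14 effects for Camk2a to -0.61. The cause of these reversals was not tested.

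The count of genes that correlate with Mbp by rank was 5 of 6. It was 1 without the 2 libraries farthest in Mbp and 0 without the 3 myelin-rich libraries. It was 0 without those and cre_AA14 1 (a choice made after seeing the data), and 2 to 5 with 1 library left out. For Gad1, Spearman's rho was -0.17 and -0.024 in the settings without 3 and without 4 libraries. With the longest transcript as length, 2 of 6 genes kept their place in the order of levels. Without ctrl_AA14 replicate 1, the comparison of myelin-rich with other libraries gave 5 genes in place of 2.

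The replicate block changed no call, with 0 of the 6 called and 5 correlated with Mbp. For Mbp the permutations did not allow for the centring on the means of each replicate number. Over 18 pairs of libraries with the same number, the correlation of deviations was -0.562 to 0.36 and above 0.1 in 5, so the numbers were not taken to pair the libraries. For AA14 in control-virus mice edgeR called 1 gene of all tested, DESeq2 2299, limma-voom 3409 and a fit of these 2 groups only 2266, none of them among the 6. In the 9 libraries Gad1 rested on 7 to 38 counts, so small differences among them are not detectable at this depth.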
